A study of Mus musculus with 3 samples.

Results

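The retinoid cycle genes described here are 8 of 31053 genes in a count table of sorted mouse cells labelled as cone photoreceptors. These genes are Abca4, Rdh12, Rdh8, Dhrs3, Rlbp1, Rpe65, Lrat and Rgr. They were chosen by name, as genes that return the chromophore of the visual pigment to its light-sensitive form, and Abca4 was put first because its level was known from earlier results of these data. They were followed in the 183 of 208 wells in which 500 genes or more were counted and mitochondrially encoded genes took no more than 30% of the counts.

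The wells came from 3 mouse lines, each sorted for GFP-positive cells from papain-dissociated retina with a viability dye into 1 plate of 96 wells. The wildtype library is named Chrnb4-GFP, for a reporter that marks cones. The Cnga3-/- library, named Cnga3-GFP, is from mice without a subunit of the cone cyclic nucleotide-gated channel, and the Pde6ccpfl1 library, named Pde6c-GFP, is from mice whose cone phosphodiesterase carries a mutated catalytic subunit. All 3 are labelled as cones of postnatal day 12, and GFP is in the name of each. The number of mice behind a plate, the strain and the allele details beyond these names are not given in the sources used here. The well names of each plate carry a different tag, P11, P08 and P10 in the order wildtype, Cnga3-/- and Pde6ccpfl1, whose meaning is not stated, and which if it were an age would differ with genotype. With 1 library per genotype, genotype and plate cannot be told apart, no p-value was computed, and every interval given is a 95% interval that covers counting error only.

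In the retinoid cycle, light turns the retinal bound to opsin into its all-trans form, which leaves the pigment and has to be rebuilt before the pigment can be used again. The transporter ABCA4 moves retinal bound to phosphatidylethanolamine across the disc membrane of photoreceptor outer segments, and retinol dehydrogenases of photoreceptors such as RDH8 and RDH12 reduce retinal to retinol. The remaining steps, esterification by LRAT, isomerisation by RPE65, and handling by CRALBP (the product of Rlbp1) and RGR, take place in the pigment epithelium and in Müller glia, and loss of ABCA4 causes Stargardt disease in people.

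The windows around the start sites of the members were read from RefSeq, each 300 bases from 250 before to 50 after the start on GRCm38.p6, and 10 windows matched all 8 members. The windows of Abca4 and Rdh12 are shown because these genes held nearly all counts of the group. Capitals mark matches to TAATCC, the core bound by the photoreceptor homeodomain factors CRX and OTX2 (shown as GGATTA where the match is on the other strand), and to TGCTGA, a part of the element bound by the rod factor NRL. The letters were searched on both strands and matches of the 2 motifs cannot overlap.
Abca4 (chr3:122044210-122044509, plus strand): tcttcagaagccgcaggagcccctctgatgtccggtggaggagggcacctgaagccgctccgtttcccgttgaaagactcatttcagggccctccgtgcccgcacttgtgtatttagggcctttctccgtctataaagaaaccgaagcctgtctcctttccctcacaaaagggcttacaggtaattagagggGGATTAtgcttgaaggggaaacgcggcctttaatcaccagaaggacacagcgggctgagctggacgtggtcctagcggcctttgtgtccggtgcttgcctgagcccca
Rdh12 (chr12:79208663-79208962, plus strand): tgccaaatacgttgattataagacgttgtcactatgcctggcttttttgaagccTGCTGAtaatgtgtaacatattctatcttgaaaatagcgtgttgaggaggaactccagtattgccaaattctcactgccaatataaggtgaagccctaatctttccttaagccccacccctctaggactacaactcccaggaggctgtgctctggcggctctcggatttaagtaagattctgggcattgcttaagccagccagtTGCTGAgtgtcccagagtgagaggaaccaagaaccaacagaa
TAATCC was in 3 of the 10 member windows, those of Abca4, Rgr and Rpe65, and in 7.06% of the 32851 windows of the table. TGCTGA was in 3 of the 10, those of Rdh12, Rdh8 and Rlbp1, and in 19.5% of the table. Abca4 and Rdh12, the abundant pair, shared neither match.

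The kept cells numbered 52 wildtype, 70 Cnga3-/- and 61 Pde6ccpfl1, with 273080, 335499 and 295011 counts and a median of 4895, 4056.5 and 3796 counts per cell. Of 12 cone markers, the 5 genes Opn1sw, Gnat2, Gngt2, Pde6c and Cngb3 were at 0 in the wildtype library. The 12 markers summed to 52 counts in 21 wildtype cells, 252 counts in 60 Cnga3-/- cells and 211 counts in 56 Pde6ccpfl1 cells, so 31 of the 52 wildtype cells had no count of any cone marker. The 12 rod markers summed to 115, 271 and 199 counts, with none at 0. Cnga3 had 22, 13 and 3 counts and Pde6c 0, 5 and 2, as 1 value per gene with no part of the gene given, so they do not check the genotypes.

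Well names were shared between plates, 57 of them by all 3, and 43 of these were kept in every plate. Of 418 genes with at least 50 counts in each library over these 43 wells, 366 (87.6%) had their highest count in the same well of all 3 plates. Abca4 was 1 of them, in well F12, and Rdh12 was another, in well C12. In all, 42 well names led at least 1 such gene, F12 led 9 genes and C12 led 22. The cause was not tested, and levels and ratios of Abca4 and Rdh12 are therefore given with and without that well.

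Abca4 was among the most abundant genes of all 3 libraries, with a level lower in Cnga3-/- than in wildtype and Pde6ccpfl1. Its counts summed over kept cells were 493 (wildtype), 359 (Cnga3-/-) and 541 (Pde6ccpfl1). As CPM, counts per 1000000 counts of the library, these are 1805 CPM (interval 1649 to 1972), 1070 CPM (962 to 1187) and 1834 CPM (1683 to 1995). Ranked by counts among all genes it stood at place 50, 82 and 47. The wildtype and Pde6ccpfl1 intervals overlap, and the Cnga3-/- interval lies below both.

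**Figure D1:**
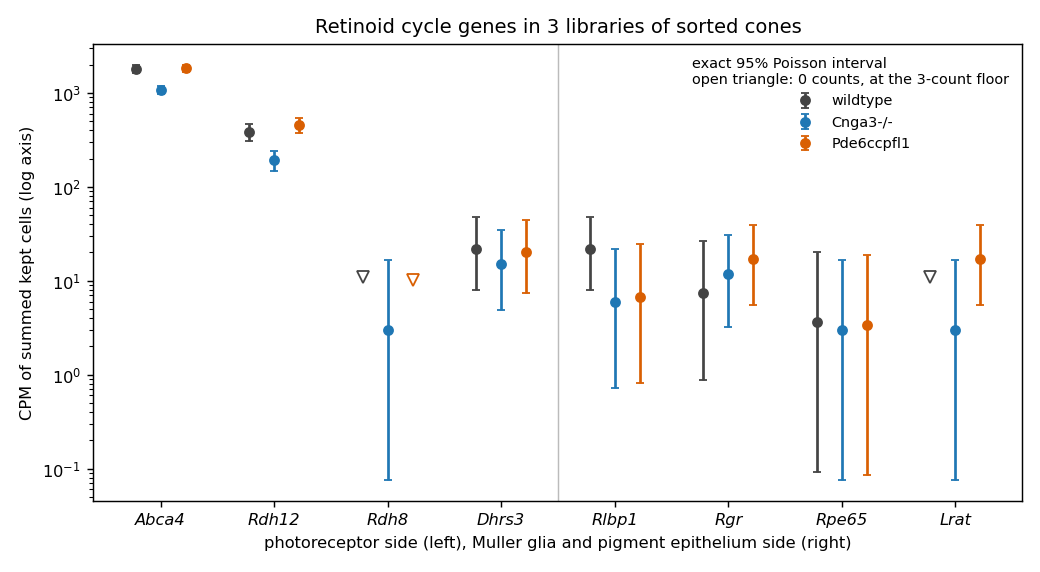
CPM of each of the 8 members in the 3 libraries on a log axis, as points with exact Poisson 95% intervals from summed counts of kept cells, and open triangles at the floor of 3 counts for a library with 0. Abca4 and then Rdh12 stand far above the other 6 members in every library, and both are lowest in Cnga3-/-.

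Levels of different genes were compared per kilobase of exon, with lengths from the GENCODE M21 annotation of GRCm38. Abca4 (ENSMUSG00000028125.14, chromosome 3, 122044443 to 122180123, plus strand, 12.0 kb of exon) had 150, 89.0 and 153 CPM per kb in wildtype, Cnga3-/- and Pde6ccpfl1. On this scale its percentile among protein-coding genes was 99.4, 99.0 and 99.4. Since it is not stated whether reads in introns were counted, the level was also taken over the whole gene span of 135.681 kb, where it was 13.3, 7.89 and 13.5 CPM per kb and the percentile was 97.6, 96.0 and 97.7. The gene stood near the top of the protein-coding genes on both scales.

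A count of Abca4 was present in nearly every cell. All 52 wildtype cells had it, as did 92.9% of Cnga3-/- cells (65 of 70) and 98.4% of Pde6ccpfl1 cells (60 of 61). After each cell was thinned to 1400 counts, with shallower cells left out, the wildtype share was 85.4% (41 of 48; exact Clopper-Pearson interval 72.2 to 93.9), the Cnga3-/- share 75.4% (49 of 65; 63.1 to 85.2) and the Pde6ccpfl1 share 92.6% (50 of 54; 82.1 to 97.9). The 3 intervals overlap, with the lowest share in Cnga3-/-. The share in cells that should lack Abca4 could not be given, since only 1 sorted population was measured.

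The counts per well ranged from 1 to 72 in wildtype with a median of 7, from 0 to 87 in Cnga3-/- with a median of 3.5, and from 0 to 95 in Pde6ccpfl1 with a median of 5. The middle 50% of wells held 3 to 11.5, 2 to 5.75 and 3 to 12 counts. Each highest value was well F12, and the next well held 24, 15 and 23 counts. In every plate F12 thus stood apart from the other wells. F12 was not among the deepest wells, at place 31, 32 and 21 by total count, and it had counts of 0, 1 and 3 of the 12 cone markers. Abca4 made up 72 of the 4507 counts in F12 of the wildtype plate, 87 of 4284 in Cnga3-/- and 95 of 5618 in Pde6ccpfl1. These are 15975, 20308 and 16910 CPM, which is 10.2, 24.7 and 10.97 times the level in the other wells of the same plate. F12 thus held 14.6%, 24.2% and 17.6% of the gene's counts.

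**Figure D2:**
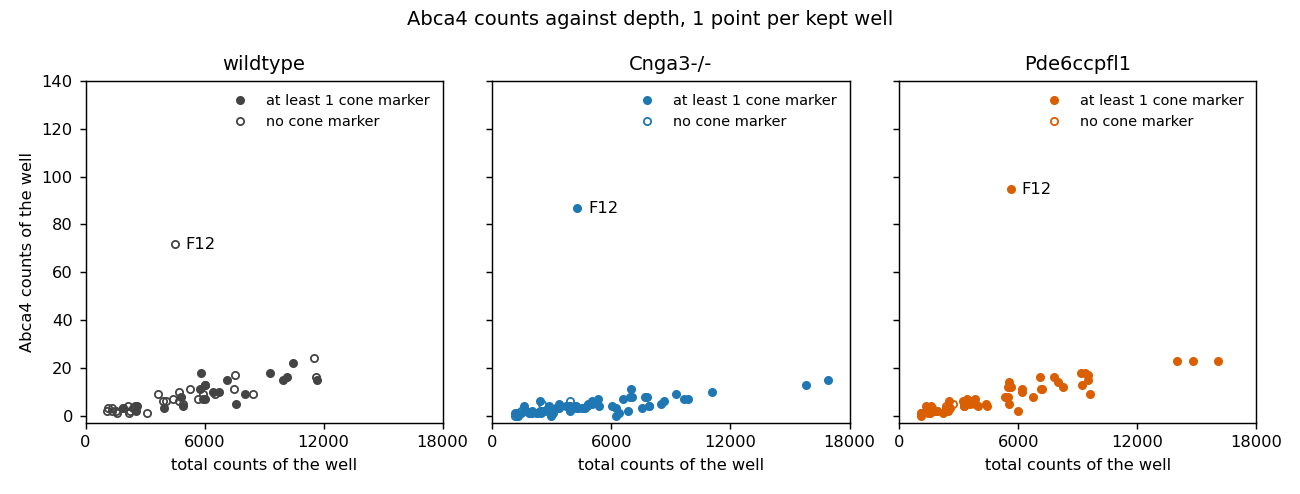
Counts of Abca4 in each kept well against the total counts of that well, 1 panel per library, with filled points for wells with a count of a cone marker and open points for wells without. F12 holds 72, 87 and 95 counts and lies far above the other wells, whose counts rise with depth in every library.

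In the remaining wells the counts of Abca4 went with the depth of the well. The variance of Abca4 over that expected from counting alone was 10.8, 22.5 and 12.4 with F12 and 0.931, 0.933 and 0.671 without it, where a value of 1 is counting error alone. Over genes with at least 200 counts (138, 148 and 139 genes) the median of this ratio was 23.3, 33.4 and 25.1, and 1.15, 1.24 and 1.10 when each gene was taken without its own leading well. Without F12 the Spearman correlation of Abca4 counts with well depth was 0.862, 0.729 and 0.907 over 51, 69 and 60 wells of 1 plate each, where the depth of a well includes the gene's own counts. A spread near counting error outside 1 leading well was therefore common among well-counted genes, and leaving out the highest well lowers the ratio of any gene.

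**Figure D3:**
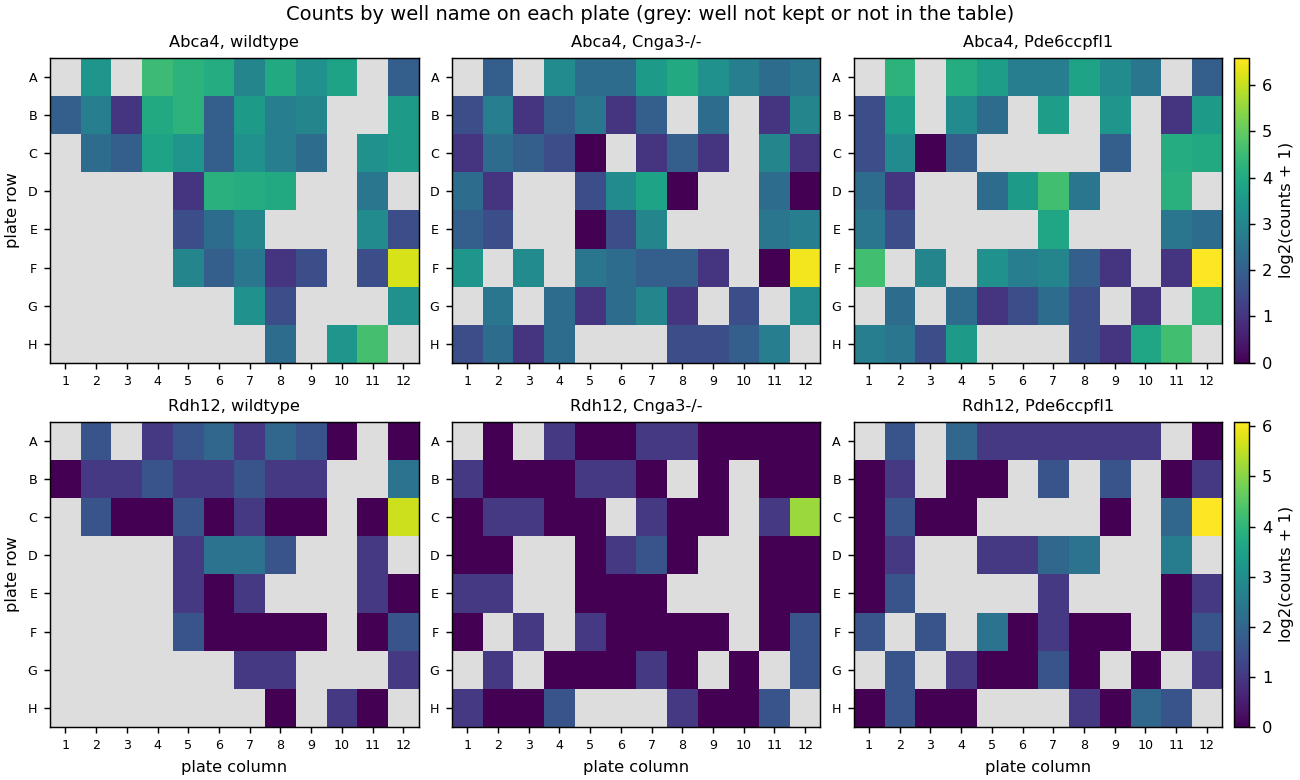
Plate layouts of the 3 libraries (rows A to H, columns 1 to 12) coloured by log2(counts + 1) of Abca4 (top) and Rdh12 (bottom) in each kept well, with wells that were left out or not in the table in grey. F12 is the brightest well for Abca4 and C12 for Rdh12 on all 3 plates.

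The level of Abca4 was close in wells with and without counts of cone markers. Without F12, the 30 wildtype cells with no cone marker had 1574 CPM (1367 to 1805) and the 21 with at least 1 had 1561 CPM (1359 to 1784). The values were 951 (627 to 1384; 10 cells) and 809 (711 to 917; 59 cells) in Cnga3-/-, and 1560 (978 to 2362; 5 cells) and 1540 (1397 to 1694; 55 cells) in Pde6ccpfl1. In the 12 wildtype cells with no count of a cone or a rod marker the level was 1540 CPM (1175 to 1983). In all 3 libraries the intervals of cells with and without a cone marker overlap.

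Cnga3-/- had the lowest level of Abca4 with and without F12. It was 1.69-fold lower than wildtype, a log2 ratio of -0.75 (-0.95 to -0.56). Without F12 the levels were 1568 CPM (1421 to 1725) in wildtype and 821 CPM (727 to 925) in Cnga3-/-, and the ratio was -0.93 (-1.16 to -0.71). The median log2 ratio of the 1723 genes compared (50 counts or more over the pair of libraries, and detected in 20% or more of the cells of either) was -0.32, and 202 of them (11.7%) were 2-fold or more lower and 193 (11.2%) 2-fold or more higher. None of the members compared, Abca4 and Rdh12, was past 2-fold. Scaled by median-of-ratios factors, Abca4 was at -0.53 beside a median of -0.10, and 97 genes were at least 2-fold lower and 242 higher. After thinning the ratio was -0.50, and -0.71 (-1.14 to -0.28) without F12. The cells with 3 or more cone markers gave -1.14 (-1.77 to -0.46), past 2-fold but with an interval that reaches short of it. Wildtype had 2 such cells, with 25 Abca4 counts, and F12 was not among these cells in either library.

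In Pde6ccpfl1 the level of Abca4 stood close to wildtype, with a log2 ratio of 0.02 (-0.16 to 0.20). Without F12 it was 1541 CPM (1401 to 1691) in Pde6ccpfl1, and the ratio was -0.02 (-0.22 to 0.17). Of 1600 genes compared, 163 (10.2%) were 2-fold or more higher and 244 (15.2%) 2-fold or more lower, with a median of -0.16, and neither Abca4 nor Rdh12 was among them. For counting error alone these intervals reach up to 0.20 on the log2 scale, or down to -0.22 without F12. They hold no spread between plates or mice and so do not bound a difference between genotypes. The interval was wider after thinning (-0.57 to 0.18) and in cells with 3 or more cone markers (-0.37 to 0.87).

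Between the mutant lines Abca4 was 1.71-fold higher in Pde6ccpfl1 than in Cnga3-/-, a log2 ratio of 0.78 (0.58 to 0.97), and 0.91 (0.69 to 1.13) without F12. Of 1693 genes compared, 109 (6.44%) were at least 2-fold higher in Pde6ccpfl1 and 158 (9.33%) lower, with a median of 0.07. Of the 2 members compared, Rdh12 was past 2-fold and Abca4 was not. With cells thinned to 1400 counts the Abca4 ratio was 0.30 (-0.07 to 0.68), an interval that includes 0, and 0.54 (0.11 to 0.97) without F12. Among cells with 3 or more cone markers it was 1.36, past 2-fold, with F12 among them on the Pde6ccpfl1 plate alone, and 0.92 (0.60 to 1.25) without F12. The 3 comparisons share libraries, so the low Cnga3-/- value enters more than 1 of them.

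The same order was seen well name by well name. Over the 43 names kept on all plates, the CPM of Abca4 was lower in Cnga3-/- than in wildtype in 34 and higher in 9. Pde6ccpfl1 was above Cnga3-/- in 38 and below it in 5, and it was above wildtype in 24 and below in 19. Summed over these names without F12 and C12, the ratios were -0.87 (-1.13 to -0.62) for Cnga3-/- over wildtype, 0.04 (-0.18 to 0.26) for Pde6ccpfl1 over wildtype and 0.91 (0.66 to 1.17) for Pde6ccpfl1 over Cnga3-/-. The lower level in Cnga3-/- was thus seen in most well names, but the tallies use the same counts as the ratios and are not added support. The median ratio of all genes compared was also below 0 (-0.32) in Cnga3-/- over wildtype, and no such tally over all genes is given. The names are positions on 1 plate per genotype and not matched cells.

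Rdh12, a retinol dehydrogenase of photoreceptor inner segments whose loss causes an early retinal dystrophy in people, was the other abundant member. Its counts were 104 (wildtype), 64 (Cnga3-/-) and 133 (Pde6ccpfl1), which are 381 CPM (311 to 461), 191 CPM (147 to 244) and 451 CPM (377 to 534). Per kilobase of exon (ENSMUSG00000021123.12, chromosome 12, 79208914 to 79222665, plus strand) it had 128, 64.3 and 152 CPM per kb, at percentile 99.2, 98.5 and 99.4 of protein-coding genes. Outside the leading wells, C12 for Rdh12 and F12 for Abca4, the levels were 71.1, 29.7 and 77.9 CPM per kb for Rdh12 and 130, 68.3 and 128 for Abca4. The percentiles were then 98.5, 96.4 and 98.7 for Rdh12 and 99.2, 98.6 and 99.3 for Abca4. Per kilobase of exon Rdh12 was thus below Abca4 in each library with and without those wells, though close to it in Pde6ccpfl1 with all kept wells (152 beside 153). Over the whole gene span, with all kept wells, the order was reversed. Rdh12 was there at 27.7, 13.9 and 32.8 CPM per kb and Abca4 at 13.3, 7.89 and 13.5. The order thus depends on the length used, and it is not stated whether reads in introns were counted.

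**Figure D4:**
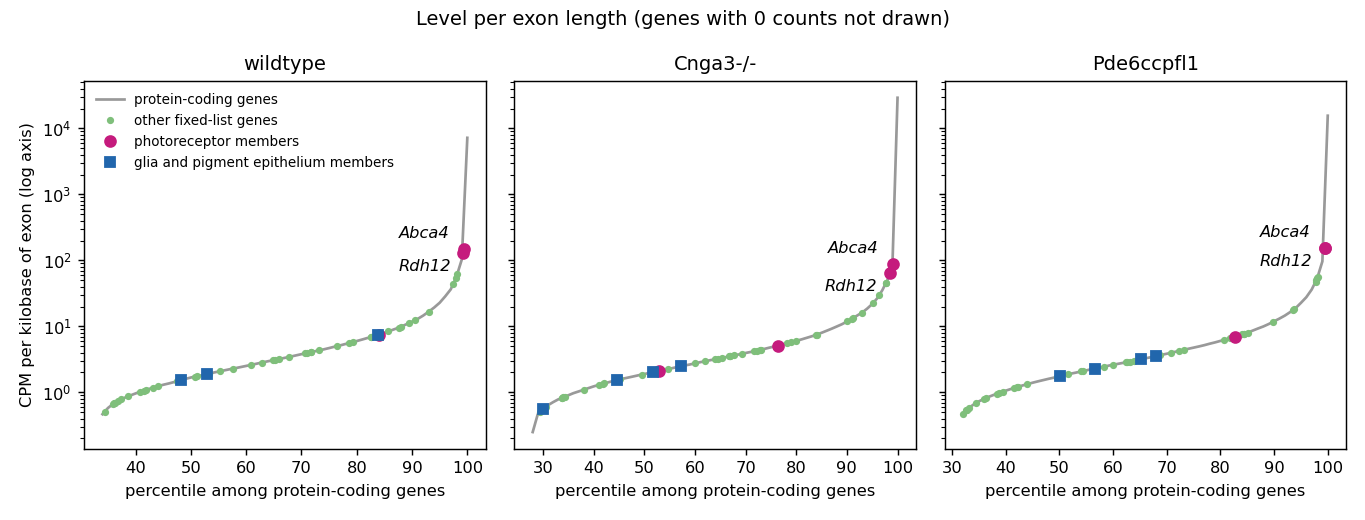
CPM per kb of exon (log axis) against percentile among protein-coding genes, 1 panel per library, with the line for all protein-coding genes and points for the members and the other listed genes that had a count. Abca4 and Rdh12 lie at the right end of the line, at percentile 98.5 or above in every library with all kept wells, and the other members with a count lie far lower.

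About 50% of the Rdh12 counts came from a single well of each plate. Well C12 held 48 of 104 counts in wildtype (46.2%), 35 of 64 in Cnga3-/- (54.7%) and 67 of 133 in Pde6ccpfl1 (50.4%). In that well Rdh12 reached 6409, 5473 and 7059 CPM, 30.4, 62.1 and 30.5 times the level in the other wells. C12 was at place 12, 19 and 6 by total count, and it had counts of 0, 2 and 3 cone markers. The median well had 1, 0 and 1 counts, no other well had more than 4, 2 and 5, and 18, 45 and 24 cells had none.

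Outside C12 the level of Rdh12 was 211 CPM (159 to 274), 88.1 CPM (59.0 to 127) and 231 CPM (179 to 294), on 56, 29 and 66 counts. Its variance over that expected from counting was 14.8, 14.2 and 16.2 with C12 and 0.758, 0.823 and 0.748 without it, as for Abca4 after its highest well was left out. A count was seen in 34 (65.4%), 25 (35.7%) and 37 (60.7%) cells, and after thinning in 13 of 48 (27.1%, interval 15.3 to 41.8), 9 of 65 (13.8%, 6.53 to 24.7) and 16 of 54 (29.6%, 18.0 to 43.6). As with Abca4, the thinned shares overlap.

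Rdh12 was lower in Cnga3-/- than in either other library. Against wildtype its log2 ratio in Cnga3-/- was -0.997 (-1.47 to -0.53), just inside 2-fold, and -1.26 (-1.96 to -0.59) without C12, past it. After thinning it was -0.95 (-2.05 to 0.11) and in cells with 3 or more cone markers -1.44 (-3.07 to 0.60), intervals that include 0. Pde6ccpfl1 over wildtype was 0.24 (-0.14 to 0.63), and 0.13 (-0.40 to 0.67) without C12. Pde6ccpfl1 over Cnga3-/- was 1.24 (0.80 to 1.69), or 2.36-fold, and 1.39 (0.74 to 2.07) without C12. The mean over wells of the CPM of each well gave 0.96, short of 2-fold. Well by well, Rdh12 in Cnga3-/- was below wildtype in 24 of 43 names, above it in 9 and at 0 in both in 10. Both abundant members thus had their lowest level in Cnga3-/-, and their median log2 ratios were -0.88, 0.13 and 1.01 in the order above, beside -0.32, -0.16 and 0.07 for all genes compared.

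**Figure D5:**
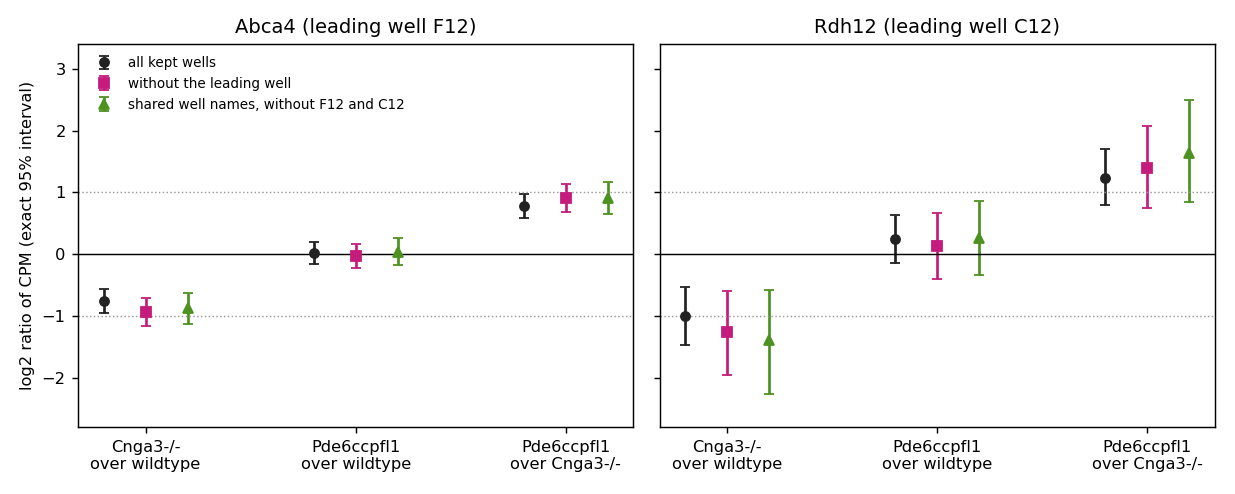
Log2 ratios of Abca4 and Rdh12 in the 3 comparisons with exact 95% intervals that cover counting error only, for all kept wells, without the leading well, and for well names kept on all plates without F12 and C12 (dotted lines mark 2-fold). For both genes Cnga3-/- over wildtype lies below 0 and Pde6ccpfl1 over Cnga3-/- above 0 in the 3 sets of wells, and Pde6ccpfl1 over wildtype includes 0.

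The other retinal reductases were scarce. Rdh8 (chromosome 9, 20818503 to 20826117), the outer segment enzyme that reduces all-trans retinal, had 0, 1 and 0 counts, where 3 counts would be 10.99, 8.94 and 10.2 CPM. Dhrs3 (chromosome 4, 144892827 to 144928209), also a retinal reductase and first described in cones, had 6, 5 and 6 counts in 4, 5 and 5 cells, or 22.0, 14.9 and 20.3 CPM. Its ratios were -0.56 (-2.61 to 1.42) for Cnga3-/- over wildtype, -0.11 (-2.01 to 1.79) for Pde6ccpfl1 over wildtype and 0.45 (-1.53 to 2.50) between the mutants. Intervals this wide show neither a difference nor its absence.

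The members that act in Müller glia and the pigment epithelium had 9, 8 and 13 counts in all. Rlbp1 (chromosome 7, 79374870 to 79387048), which encodes the retinal-binding protein CRALBP, had 6, 2 and 2 counts in 3, 2 and 2 cells. Rgr (chromosome 14, 37034909 to 37048964), an opsin of glia and pigment epithelium, had 2, 4 and 5 counts, each in a cell of its own. Rpe65 (chromosome 3, 159599175 to 159625321), the isomerase, had 1 count in each library. Lrat (chromosome 3, 82892579 to 82903973), which esterifies retinol, had 0, 1 and 5 counts. With wildtype set to the floor of 3 counts, Pde6ccpfl1 would be 1.54-fold higher. That value has no interval and shows no difference. An antisense gene that overlaps Lrat in the annotation, with no shared exon, had 5, 1 and 5 counts, and the strand setting is not known. None of these 4 genes reached the 50 counts needed for the comparison.

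Levels of the 6 scarce members together were 2.84, 2.16 and 3.33 CPM per kb. The 1133 olfactory receptor genes of the table, which retinal cells are not known to need, were at 4.51, 3.61 and 4.17 CPM per kb, a reference chosen with earlier results known. The members' intervals, 1.59 to 4.68, 1.18 to 3.62 and 2.00 to 5.20 CPM per kb, include the reference in all 3 libraries, so the members could not be told apart from it at this depth. The reference is not a floor, since the median protein-coding gene was at 1.68, 1.89 and 1.75 CPM per kb. An interval that includes it therefore does not show that a set of genes was absent. Markers of the cells that hold their products were set beside the same reference. The 10 Müller glia markers summed to 54, 43 and 30 counts, or 4.24 (3.18 to 5.53), 2.75 (1.99 to 3.70) and 2.18 (1.47 to 3.11) CPM per kb. Their intervals include the reference in wildtype and Cnga3-/- and lie below it in Pde6ccpfl1. The 10 pigment epithelium markers summed to 79, 76 and 46 counts, of which Mitf held 52, 38 and 22 counts. They were at 8.32 (6.59 to 10.4), 6.52 (5.13 to 8.16) and 4.49 (3.28 to 5.98) CPM per kb. These intervals lie above the reference in wildtype and Cnga3-/- and include it in Pde6ccpfl1. Well F08 alone held 22 of the Mitf counts in wildtype and 9 in Cnga3-/-. The level of these markers without Mitf or without leading wells was not computed. The cone markers were at 5.07 (3.79 to 6.65), 20.0 and 19.1 CPM per kb, an interval that includes the reference in wildtype. Among the other pigment epithelium markers Otx2os1 had 9, 15 and 10 counts, Dct 7, 10 and 6, Tyrp1 3, 3 and 3, Tyr 3, 5 and 0, Best1 1, 4 and 2, and Ttr 0, 0 and 1, while Mlana was at 0 in all libraries. The part of other cell types in the scarce members' counts was not tested.

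Other genes of retinoid handling were sparse as well. Of 16 listed, 15 were in the table, and 1, 1 and 3 could be compared in the order above. Dgat1, an acyltransferase that can also esterify retinol, had 36, 23 and 45 counts. It was higher in Pde6ccpfl1 than in Cnga3-/- by a log2 ratio of 1.15 (0.40 to 1.95). This was the 1 call in this list, among 3 genes compared there, beside 109 of 1693 (6.44%) over all genes. Well C12 led Dgat1 as it led Rdh12, with 19, 14 and 24 of its counts. In the other wells Dgat1 had 17, 9 and 21 counts, or 64.0 (37.3 to 102), 27.3 (12.5 to 51.9) and 73.6 (45.5 to 112) CPM. Rbp3, the retinoid carrier of the space between photoreceptors and pigment epithelium, had 10, 23 and 28 counts, or 6.92, 12.9 and 17.9 CPM per kb. Its ratio to wildtype was 1.37 (0.29 to 2.58) for Pde6ccpfl1 and 0.90 (-0.22 to 2.14) for Cnga3-/-. The cone markers also had more counts in both mutant libraries than in wildtype, and their part in this was not tested. Awat2, an acyltransferase linked to retinyl ester formation in cone pathways, had 4, 21 and 30 counts, of which well H03 held 16 and 8 in the mutant libraries. H03 was not among the wells of the wildtype plate.

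Genes of retinoic acid synthesis, breakdown and reception gave 2 of 15 for comparison each time, with none 2-fold apart. These are too few to set beside the shares over all genes given above. Rxrb, a nuclear receptor, had 67, 60 and 63 counts, and Aldh1a2, which makes retinoic acid, had 33, 35 and 38. Dhrs9, a retinol dehydrogenase, had 13, 8 and 1. Of the 4 carotenoid genes none could be compared, and Scarb1, a carotenoid uptake receptor, had the most counts, 10, 11 and 10. Bco1 and Bco2, which cleave carotenoids, had 4, 3 and 1 and 1, 3 and 0 counts.

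Relatives of the leading pair did not share their level. The 15 ABCA transporters other than Abca4 summed to 125, 170 and 158 counts, or 3.46, 3.83 and 4.05 CPM per kb, and their most counted members were Abca1 (27, 26 and 22), a cholesterol exporter, Abca13 (27, 22 and 17) and Abca12 (16, 18 and 29), a lipid transporter of skin. Abca1 was the 1 gene of this list that could be compared, in Cnga3-/- over wildtype, and it was not 2-fold apart. The 15 short-chain dehydrogenases found of 17 listed summed to 16, 13 and 14 counts, none could be compared, and Dhrs4 had the most (8, 7 and 4), followed by Dhrs7 (3, 1 and 1) and Dhrs11 (1, 1 and 2).

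The genes beside Abca4 on chromosome 3 were at lower levels than Abca4. Arhgap29, 27.7 kb before it, had 32, 15 and 11 counts, or 13.3, 5.07 and 4.23 CPM per kb. Abcd3, a peroxisomal transporter 229 kb before, had 12, 3 and 3 counts. On the other side Gclm, a subunit of the enzyme that starts glutathione synthesis, had 4, 6 and 5 counts and Dnttip2 had 7, 13 and 13, or 7.75, 11.7 and 13.3 CPM per kb. None of the 4 neighbours was above 13.3 CPM per kb, where Abca4 was at 89.0 or more. Abca4 overlaps the pseudogenes Gm43158 and Gm43157 in the annotation, with no shared exon, and neither is in the table.

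Across kept cells the pattern most like Abca4 was that of Gtf3c3, with a mean over the 3 libraries of the within-library Spearman correlation of CPM of 0.33. Zfp936, Tbc1d22b and Fbn2 followed at 0.29 each and Tnfrsf1b at 0.28, among 275 genes with at least 300 counts, whose median was 0.08. These are weak correlations of sparse counts over 52, 70 and 61 cells that share wells and depth. They describe likeness in these plates and nothing further.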

How the data were processed

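Counts per gene and well from 3 plates of single sorted mouse cells labelled as cones were used as deposited by the authors, with no normalization. The submitters' processing notes name featureCounts, without a version, and the build GRCh38, a human build, while 98.1% of the gene symbols are in the mouse annotation GENCODE M21, and the build the reads were aligned to is not known. No coordinates of the named build are used here. The aligner, strand setting, feature type and treatment of molecular identifiers are not given in the sources used here, so counts may not be independent molecules.

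Wells were matched to libraries by column name. Wells with under 500 genes or over 30% mitochondrially encoded counts were left out (9, 6 and 10). No doublet caller was run, since wells were sorted to hold 1 cell each. Counts of the kept wells of a library were added up and divided by their total as CPM, with exact Poisson intervals. Log2 ratios have exact intervals conditional on the summed count, and a library at 0 was set to 3 counts, which gives a bound with no interval. Python 3.11.15, numpy 2.4.6, pandas 2.3.3 and scipy 1.17.1 were used, and TMM factors as an alternative came from edgeR 4.0.16 in R 4.3.3. The ratio and interval steps were tested on simulated data.

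The text names the 8 members, from each list the 3 genes with the most counts and any compared gene at least 2-fold apart, the 5 genes most like Abca4 and the 2 nearest protein-coding genes on each side, leaving out predicted genes and pseudogenes. Members, lists and rules were chosen with earlier results of these data known. Alternatives were other cell filters, weightings and scalings, thinning to 1400 counts, cells with at least 3 cone markers, leaving out deep or leading wells and other gene filters. Leaving out F12 or C12 (also among thinned cells and cells with 3 cone markers) and the use of wells kept on all plates were added after seeing the data.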

Additional observations from a re-analysis of the deposited data

Results flagged for a closer look

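The 25 wells left out by the cell filter also held counts of Abca4, in data the comparisons did not use. There were 6 counts in 4 of 9 wildtype wells (836 CPM, interval 307 to 1820), 6 in 4 of 6 Cnga3-/- wells (1263 CPM, 464 to 2750) and 11 in 6 of 10 Pde6ccpfl1 wells (1334 CPM, 666 to 2387), each above the 3 counts taken as the floor. The 3 intervals overlap widely and give no order of the libraries. Rdh12 had 2, 1 and 3 counts in these wells and the other 6 members none.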

How the results depend on the processing

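The Abca4 ratios kept their direction in Cnga3-/- over wildtype and Pde6ccpfl1 over Cnga3-/- under every alternative run, while Pde6ccpfl1 over wildtype took both signs. In all 37 alternative values stayed within the counting interval of the reported value and 11 did not. The 11 were, for Cnga3-/- over wildtype, -0.53 with median-of-ratios scaling, -0.50 after thinning, and -1.14 for cells that had 3 or more cone markers and the same -1.14 for these cells without F12. For Pde6ccpfl1 over wildtype they were -0.19 after thinning (-0.17 without F12) and 0.22 in those cells (-0.22 without F12), and for Pde6ccpfl1 over Cnga3-/- 0.30 (0.54 without F12) and 1.36 (0.92 without F12, back within the interval). F12 had 3 cone markers on the Pde6ccpfl1 plate alone, where it held 95 of the 331 counts of such cells, and 2 wildtype cells had 3. Other causes were not tested. Genes at least 2-fold higher and lower numbered 381 and 414, 351 and 511, and 191 and 260 in the 3 comparisons with a minimum of 10 counts, and 35 and 35, 35 and 39, and 28 and 21 with 200. In Cnga3-/- over wildtype, 97 genes were at least 2-fold lower with median-of-ratios scaling. The sign of Rdh12 was the same throughout between the mutants and in Cnga3-/- over wildtype, where the interval includes 0 after thinning and in cells with 3 cone markers. Those cells gave 1.26 for Pde6ccpfl1 over wildtype and 2.70 between the mutants, and -0.03 and 1.41 without C12, which had 3 cone markers on the Pde6ccpfl1 plate alone and held 67 of the 109 counts there. Rdh12 in Pde6ccpfl1 over wildtype was 0.40 (0.006 to 0.80) in wells kept on all plates, an interval above 0. It was 0.25 (-0.34 to 0.86) there without F12 and C12, and -0.03 as the mean over wells. Dhrs3 gave no Cnga3-/- over wildtype value after thinning or in cells with 3 cone markers, since both libraries were at the floor. In those cells its Pde6ccpfl1 over wildtype ratio had only a lower bound, at least -3.09, from 4 counts against 0. That bound comes from setting the 2 wildtype cells to 3 counts, and it gives no direction. No library could be left out, with 1 per genotype. No paired analysis was possible because each genotype has 1 library and the result comes from no test. Depth limits the 6 scarce members, at 14 to 19 counts per library in all.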
